A study of Mus musculus with 4 samples.

Results

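The potassium channel genes of the mouse were taken as the protein-coding genes of chromosomes 1 to 19 in GENCODE release M21 whose symbol begins with Kcn. There were 92 of them among 20807 protein-coding genes, and 2 more on the sex chromosomes, Kcnd1 and Kcne1l, were left out. They were described by acetylation of lysine 27 on histone H3 (H3K27ac), a mark of active promoters and enhancers, measured by ChIP-seq (chromatin immunoprecipitation and sequencing) of gastrocnemius, the large calf muscle. All tissue was from adult female B6CASTF1/J mice, a hybrid of C57BL/6J and CAST/EiJ, aged 2 months and with no treatment named in the labels. There was 1 group, with 2 biological replicates that were each a pool of 2 tissue samples and had 2 technical replicate libraries. No conditions were compared, and whether the pooled samples of a replicate came from separate animals was not used here.

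Potassium channels let potassium leave the cell or, in the inward rectifiers, carry it more easily inward than outward, and so set the resting potential and end the action potential. In a skeletal muscle fibre this work is shared with a large chloride conductance, and the ATP-sensitive channel ties excitability to the energy state of the fibre. In the wall of a vessel, opening of potassium channels relaxes smooth muscle and raises blood flow, and in neurons the voltage-gated families set firing rate and pattern. The Kcn symbols cover pore-forming subunits (voltage-gated, calcium- or sodium-activated, inward rectifier and two-pore) and accessory subunits that change how the pore opens or where it is placed.

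The data were lists of acetylated regions on the assembly mm10: 84452 regions in the list made from both replicates (the authors' replicated list, here the combined list), 70953 in that of replicate 1 and 86937 in that of replicate 2. The list of replicate 1 covered 85.1 Mb against 118 Mb for replicate 2, so a lower value in replicate 1 was common to the whole genome: replicate 2 had the longer acetylated length at 12338 genes and replicate 1 at 1378. A promoter counted as acetylated if any transcript start of the gene had a region within 1 kb. The acetylated length of a gene was the number of bp covered by regions in the 10000 bp centred on a start, taken at the start with the largest value. Where 3 lengths follow a gene, they are those of the combined list, replicate 1 and replicate 2, in that order. The labelled tissue was checked against marker genes. All 5 skeletal muscle markers had acetylated promoters (median length 9463 bp), as did 4 of 4 endothelial (6347.5 bp), 4 of 4 smooth muscle and pericyte (3916.5 bp), 3 of 3 fibroblast (8730 bp) and 3 of 3 Schwann cell markers (1448 bp). Of the neuron markers 1 of 5 had one (Stmn2, 2143 bp), of the cardiomyocyte markers 0 of 4, and of the macrophage markers 1 of 3. In whole tissue, fewer cells of a type and less of the mark per cell cannot be told apart.

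The promoter was acetylated at 39 of the 92 Kcn genes (42.4%), against 62.1% of all protein-coding genes. In replicate 1 it was 33 members (35.9%) against 59.8% of all genes, and in replicate 2 it was 40 (43.5%) against 62.0%. A region within 5 kb of a start was present at 43 members (46.7%), against 65.8%, and over the gene body at 51 (55.4%), against 66.5%. The median acetylated length of the 92 was 0 bp in the combined list, 0 bp in replicate 1 and 396 bp in replicate 2, where all genes had 1524, 1241 and 1517 bp. Of the 92, 49 had no acetylated bp around any start in the combined list, and the share with an acetylated promoter was below that of all genes in each list.

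At the other end, 12 members (13.0%) had an acetylated length of at least 5000 bp, a share close to the 13.1% of all genes. These 12 lay between 5769 and 6841 bp, and the next member, Kcnma1, was at 3965 bp. Below that gap 19 members had 1061 to 3965 bp, 12 had 332 to 913 bp, and the rest had 0. In order of length they included Kcna7, Kcnc1, Kcnj8, Kcnj12, Kcna5, Kcnc4, Kcnj11, Kcnj2, Kcne4 and Kcng4. The steps between neighbours in this order were smaller than the differences between the 2 replicates of most of them, so the order within the 12 is not resolved. All 12 had an acetylated promoter in both replicates.

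**Figure D1:**
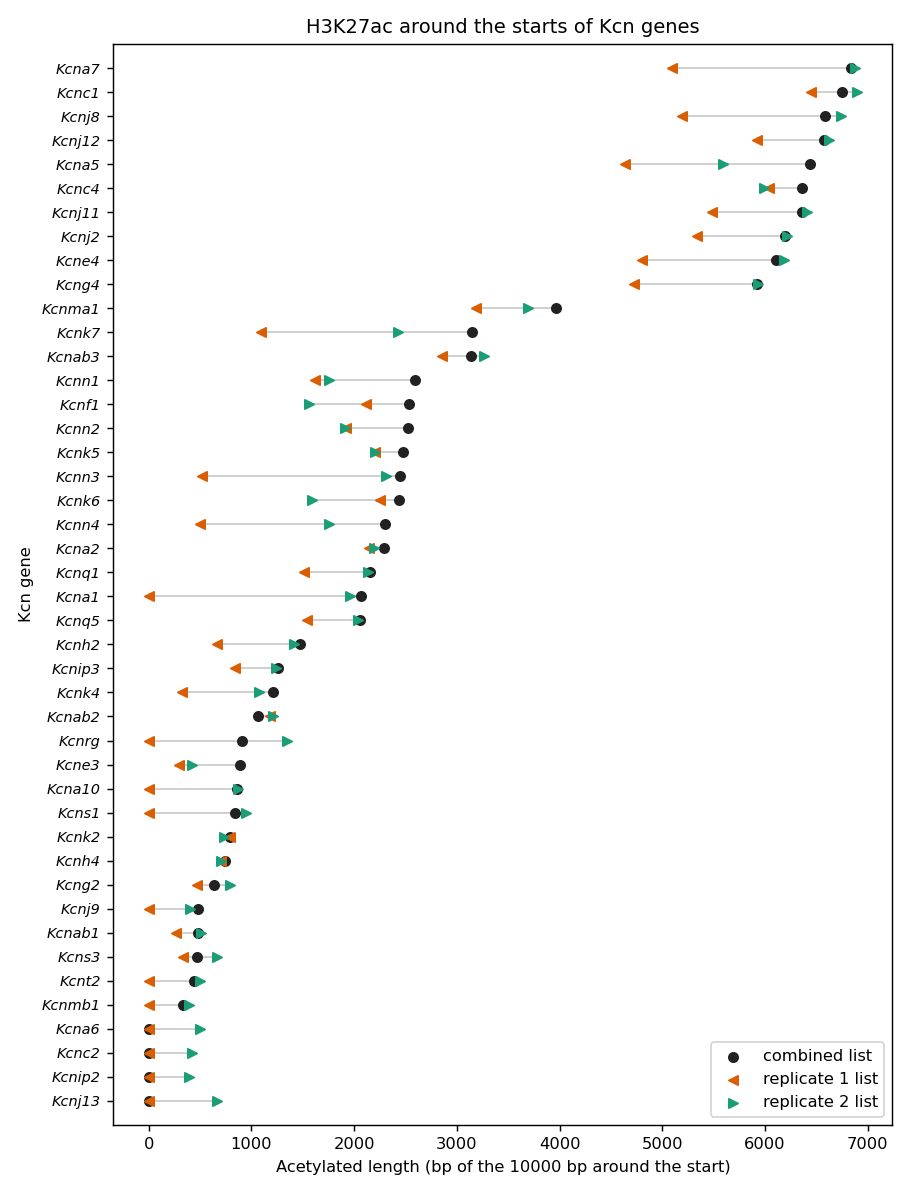
Acetylated length (x axis, bp of the 10000 bp around the start) of 44 of the 47 Kcn genes with any acetylated bp in at least 1 of the 3 lists (y axis); circles are the combined list, left-pointing triangles replicate 1 and right-pointing triangles replicate 2. The 10 genes at the top sit between 5925 and 6841 bp in the combined list, and Kcnma1, the next, is at 3965 bp.

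The starts were also classed by their sequence. CpG-rich starts, those with an observed over expected CpG ratio of at least 0.6 and a GC content of at least 50% within 500 bp, are known from most broadly expressed genes. Of all 9678 protein-coding genes with a CpG-rich start, 8774 (90.7%) had an acetylated promoter. Of the 37 Kcn genes with a CpG-rich start, 15 (40.5%) had one. At CpG-poor starts the shares were close: 24 of 55 Kcn genes (43.6%) and 4153 of 11129 genes (37.3%). When the class was read at the 5′ end of each gene model instead of the start with most acetylation, the shares at CpG-rich starts were 34.3% (12 of 35) and 90.2%, and at CpG-poor starts 47.4% and 38.5%. Among the 12 widely acetylated members 8 were CpG-poor and 4 CpG-rich (33.3%), where 60.0% of all 2719 genes of that length were CpG-rich. At the 5′ end the shares were 41.7% and 61.9%.

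**Figure D2:**
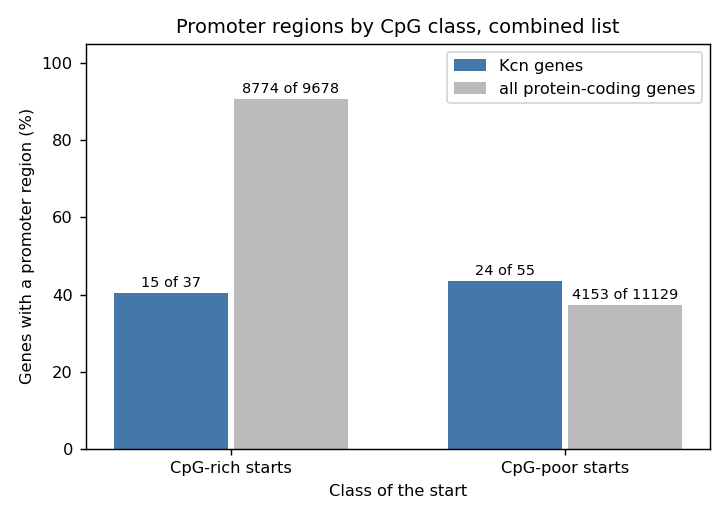
Share of genes with an acetylated promoter in the combined list (y axis, percent) by CpG class of the start (x axis), for the Kcn genes and for all protein-coding genes; the number of genes is printed above each bar. At CpG-rich starts the bar of the Kcn genes stands at 40.5% and that of all genes at 90.7%, and at CpG-poor starts the bars stand at 43.6% and 37.3%.

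The 150 bases before the start used for the class are printed here for 2 genes of each kind. They run 5′ to 3′ on the strand of the gene, with every CpG in capitals. The bases are from the mm10 reference, which is that of C57BL/6J. The members printed are the widest acetylated CpG-poor, the widest acetylated CpG-rich, and the bare CpG-rich with the highest CpG ratio. They were taken among those named here whose window holds no annotated untranslated exon. Windows in coding exons were not left out.
Kcna7, chr7:45405503-45405652, + strand: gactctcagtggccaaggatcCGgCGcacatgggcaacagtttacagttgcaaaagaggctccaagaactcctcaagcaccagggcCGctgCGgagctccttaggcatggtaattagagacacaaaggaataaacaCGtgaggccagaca
Kcnj8, chr6:142571615-142571764, - strand: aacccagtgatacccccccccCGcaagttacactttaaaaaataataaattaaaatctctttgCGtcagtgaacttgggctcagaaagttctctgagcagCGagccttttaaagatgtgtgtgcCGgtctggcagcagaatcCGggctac
Kcnc4, chr3:107459553-107459702, - strand: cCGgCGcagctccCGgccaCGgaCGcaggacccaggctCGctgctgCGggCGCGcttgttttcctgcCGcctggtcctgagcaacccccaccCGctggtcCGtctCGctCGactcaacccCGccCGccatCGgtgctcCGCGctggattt
Kcnma1, chr14:24003931-24004080, - strand: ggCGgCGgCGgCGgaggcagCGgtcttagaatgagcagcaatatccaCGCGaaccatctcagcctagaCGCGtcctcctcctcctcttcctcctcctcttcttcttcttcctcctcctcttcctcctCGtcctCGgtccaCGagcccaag
Kcnmb4, chr10:116473879-116474028, - strand: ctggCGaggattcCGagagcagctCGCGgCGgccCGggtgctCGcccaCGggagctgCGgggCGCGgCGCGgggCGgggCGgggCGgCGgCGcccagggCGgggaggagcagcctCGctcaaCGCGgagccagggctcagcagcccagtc
Kcng3, chr17:83631896-83632045, - strand: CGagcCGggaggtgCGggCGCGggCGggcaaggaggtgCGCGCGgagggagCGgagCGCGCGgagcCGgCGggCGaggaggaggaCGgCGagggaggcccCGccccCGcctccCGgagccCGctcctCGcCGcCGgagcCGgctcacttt

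Kcna7 (6841 bp acetylated) and Kcnj8 (6587 bp) held 5 CpG each in this window. Kcnc4 (6360 bp) held 19 and Kcnma1 (3965 bp) held 12. The start used for Kcnma1 shares its acetylated length with others, which lie upstream of the printed window (chr14:24004125 to 24004859). The printed Kcnma1 bases are thus inside the gene and not upstream of all its acetylated starts. At the 5′ end of its gene model Kcnma1 was CpG-poor. Kcnmb4 and Kcng3, with 0 bp in all 3 lists, held 22 and 26. The last 2 were picked for having no region and a high CpG ratio. Kcnmb4 encodes a brain form of the beta subunit of the large-conductance calcium-activated channel, and Kcng3 a silent voltage-gated subunit that works only together with another pore subunit.

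Of the 22 CpG-rich members with no acetylated promoter, 8 were in the list of neuron channels, among them Kcnd2, Kcnh3, Kcnh7, Kcnk9, Kcnmb4, Kcnq3 and Kcnt1. Of the 12 CpG-rich neuron channels 4 had an acetylated promoter, among them Kcna1 and Kcnc1. In the muscle list, 6 of the 7 skeletal muscle channels had a CpG-poor start, and all 6 had an acetylated promoter. In the vessel list 5 of 8 starts were CpG-poor and all 5 had one. These are classes of the start with most acetylation. At the 5′ end of the gene model 4 of the 7 muscle channels were CpG-poor, and Kcnj11 and Kcnj12 were CpG-rich there. In the other lists 7 of the 8 vessel channels and 8 of the 20 neuron channels were CpG-poor at that end.

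All 7 channels known from skeletal muscle fibres had an acetylated promoter in every one of the 3 lists, against 62.1%, 59.8% and 62.0% of all genes. Their median lengths were 6357, 5337 and 6219 bp, beside 1524 bp over all genes. The inward rectifiers hold the fibre at its resting potential. Kcnj2 (chromosome 11), the main subunit of the classical inward rectifier, had 6199, 5337 and 6219 bp. Its region at the start (chr11:111064852-111070216) was 5365 bp wide with a deposited signal value of 43.3, where the median of regions at Kcn promoters was 5.41. Kcnj12, which forms a closely related inward rectifier, had 6579, 5925 and 6624 bp. Both genes were thus acetylated over at least 5000 of the 10000 bp in each list.

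Kcnj11 encodes the pore of the ATP-sensitive channel of muscle, heart and pancreatic beta cells. It had 6357, 5480 and 6405 bp. Its region chr7:46096345-46101387 had the highest signal value among the regions at Kcn promoters, 45.0. Kcna7, a voltage-gated subunit found mainly in skeletal muscle and heart, had 6841, 5095 and 6877 bp. The Kcna7 region (chr7:45404469-45414473, signal value 43.1) was 10005 bp wide and also reached the start of its neighbour Ntf5, and 6184 bp of the Kcna7 length lay in that shared region. Which of the neighbours the region belongs to cannot be told apart here.

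Kcnc4, a fast voltage-gated subunit, and Kcne3, a single-pass accessory subunit that joins it in muscle, differed widely. Kcnc4 had 6360, 6035 and 5988 bp, so its replicates were close. Kcne3 had 888, 292 and 421 bp. The accessory subunit thus had the shortest acetylated start of the muscle list in all 3 lists. Kcnn3, a small-conductance calcium-activated channel known from immature and denervated fibres, had 2444, 517 and 2313 bp, so most of its length was absent from replicate 1. The region at its start had a signal value of only 1.83, below that of its intron region at chr3:89529104-89530014 (5.15).

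**Figure D3:**
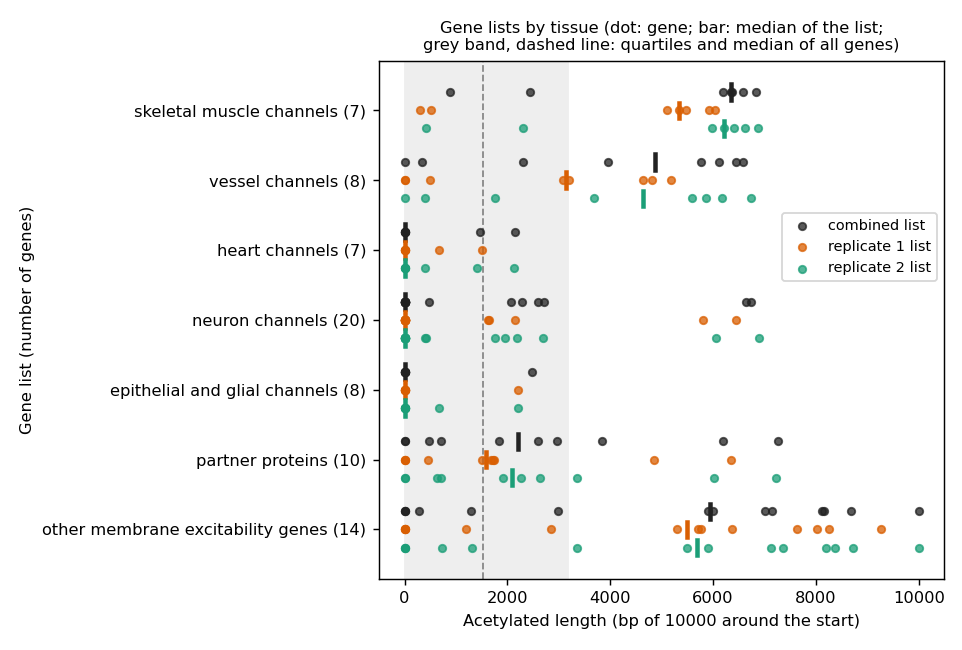
Acetylated length (x axis, bp of 10000) of the genes of each list (y axis, number of genes in brackets) in the combined list, replicate 1 and replicate 2; dots are genes, short bars medians, and the grey band and dashed line the quartiles and the median of all protein-coding genes. The median of the skeletal muscle channels lies at 6357 bp and those of the heart, neuron, and epithelial and glial channels at 0 bp in the combined list.

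Of the 8 channels known from vessel walls, 7, 5 and 7 had an acetylated promoter in the combined list and the 2 replicates, against 62.1%, 59.8% and 62.0% of all genes, so that the count in replicate 1 was near that of all genes. The median lengths were 4867, 3137.5 and 4640 bp. Kcnj8, the pore of the ATP-sensitive channel of smooth muscle and pericytes, had 6587, 5188 and 6738 bp. Kcna5, a voltage-gated subunit of arterial smooth muscle, had 6437, 4634 and 5590 bp. Kcne4, an accessory subunit of voltage-gated channels, had 6111, 4803 and 6183 bp. These 3 had at least 4634 bp in both replicates. The signal value at the Kcnj8 start, 7.72, was far below the 43.3 of Kcnj2 although the acetylated lengths of these genes were alike.

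Kcnma1, the pore of the large-conductance calcium-activated channel that opposes vessel constriction, had 3965, 3191 and 3690 bp. Kcnmb1, its smooth muscle beta subunit, had 332, 0 and 395 bp. The pore gene was thus acetylated in both replicates, and the beta subunit gene in 1 of them.

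Kcnn4, the intermediate-conductance calcium-activated channel of endothelium and blood cells, had 2304, 495 and 1753 bp, and its promoter was acetylated in replicate 2 only. Kcnk3, a two-pore background channel of pulmonary artery and other cells, was the vessel gene without an acetylated promoter. It had 0 bp in all 3 lists and a CpG ratio of 0.80. The smooth muscle and pericyte markers and the endothelial markers were acetylated in the same libraries (above), and their part in the values of the vessel channels was not tested.

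Of the 20 neuron channels, 6, 5 and 7 had an acetylated promoter in the combined list and the 2 replicates, against 62.1%, 59.8% and 62.0% of all genes. The median length of the neuron channels was 0 bp in each. The 14 without one included Kcna4, Kcnc2, Kcnd2, Kcnh3, Kcnh7, Kcnip4, Kcnj3, Kcnj6, Kcnj9, Kcnk9, Kcnmb4, Kcnq3 and Kcnt1. They hold Kcnq3, a subunit of the M current that restrains repetitive firing, and the G-protein-gated inward rectifiers Kcnj3, Kcnj6 and Kcnj9. Of those named, all but Kcnj9 (481, 0 and 399 bp) and Kcnc2 (0, 0 and 421 bp) had 0 bp in all 3 lists.

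A gene of the neuron list was as widely acetylated as the muscle genes. Kcnc1, a fast voltage-gated subunit known from fast-spiking neurons, had 6745, 6451 and 6896 bp. Its length in the combined list lay within those of the 5 widest muscle channels (6199 to 6841 bp in the combined list). Neuron markers other than Stmn2 (2143 bp) had no acetylated promoter in the same libraries, and whether RNA was made from the Kcnc1 start was not measured.

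Other acetylated neuron channels were shorter. Kcna2, an axonal voltage-gated subunit, had 2293, 2149 and 2193 bp. Kcna1, its usual partner in axons, had 2071, 0 and 1958 bp. Kcna1 therefore rests on replicate 2, and Kcna2 had almost the same length in both. Kcnn1, a small-conductance calcium-activated channel, had 2588, 1616 and 1760 bp. Most of the Kcnn1 length was a strong region, chr8:70864711-70866438 with a signal value of 35.3, whose summit lay at -2395 bp, upstream of the start, and which was within 1 kb of no start of an annotated protein-coding or long noncoding gene. At the Kcnn1 start nearest to it neither replicate had an acetylated promoter.

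Among the 7 heart channels 2 (28.6%) had an acetylated promoter, in each of the lists, against 62.1%, 59.8% and 62.0% of all genes. Kcnq1, the slow delayed rectifier of heart and epithelia, had 2156, 1510 and 2133 bp, and Kcnh2, the rapid delayed rectifier, had 1477, 666 and 1413 bp. Kcnd3, Kcne1, Kcnj3 and Kcnj5 had 0 bp in all 3 lists, and Kcnip2, a calcium-binding subunit of the transient outward channel, had 397 bp in replicate 2 only. The 4 cardiomyocyte markers had no acetylated promoter. Of the 8 epithelial and glial channels only Kcnk5, a two-pore channel of kidney and other tissues, had an acetylated promoter (2474, 2205 and 2204 bp). That is 12.5%, against 62.1% of all genes in the combined list. Kcnj1, Kcnj10, Kcnj15, Kcnj16, Kcnk1 and Kcne2 had 0 bp in all 3 lists, and Kcnj13 had 669 bp in replicate 2 only.

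Of the 43 Kcn genes in none of these lists 16 had an acetylated promoter (37.2%, against 62.1% of all genes) and the median was 0 bp. The widest was Kcng4, a silent voltage-gated subunit, with 5925, 4723 and 5932 bp. Its region covered the start without a break (chr8:119634392-119640316) at a signal value of 8.58 and a CpG ratio of 0.18. Kcng4 was thus close to the muscle channels in length and stood below Kcnj2, Kcnj11 and Kcna7 in signal value. Kcnk7, a two-pore subunit with no known current, had 3149, 1095 and 2424 bp.

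Some members owe part of their length to a neighbour. Kcnab3, a beta subunit of voltage-gated channels, had 3137, 2859 and 3265 bp, and 1550 bp of it lay in regions at the start of another gene, including its strongest (signal value 30.6). The Kcnab2 region (1061 bp, signal value 19.5) lay wholly within reach of the start of the neighbouring Nphp4. In all, the window of 5 members held bp from regions at another gene's start, and the promoter regions of 2 members, Kcna7 and Kcnab2, reached another start.

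By subfamily, the calcium-activated Kcnn genes had similar lengths in the combined list: 4 of 4 had an acetylated promoter, and their lengths ran from 2304 (Kcnn4) to 2588 bp (Kcnn1) with Kcnn2 at 2526 and Kcnn3 at 2444 bp. In replicate 1 the same 4 genes spread from 495 to 1916 bp, and 3 of 4 had an acetylated promoter. The Kcnc genes had the highest median of a subfamily of 3 or more (4535.5 bp, 3834.5 in replicate 1 and 4345 in replicate 2), with 3 of 4 acetylated, from Kcnc1 at 6745 bp down to Kcnc2 at 0. In Kcnq 3 of 5 (60.0%) had an acetylated promoter (median 2058 bp), with Kcnq1 at 2156, Kcnq5 at 2058 and Kcnq3 at 0 bp. The Kcnq share was near the 62.1% of all genes.

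The 8 Kcna genes had 5 acetylated promoters (62.5%) and a median of 1466 bp, from Kcna7 at 6841 bp to Kcna3, Kcna4 and Kcna6 at 0. Both values were near those of all genes, 62.1% and 1524 bp. For Kcna, replicate 1 had 3 acetylated promoters and a median of 0 bp, replicate 2 had 6 and 1412 bp. The 15 inward rectifiers (Kcnj) split without values in between: 4 had 6199 to 6587 bp (Kcnj2, Kcnj8, Kcnj11 and Kcnj12), Kcnj9 had 481 bp and the other 10 had 0. This split of the Kcnj genes was the same in both replicates, in each of which those 4 genes, and no other, had an acetylated promoter.

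In the 14 two-pore genes (Kcnk) 5 had an acetylated promoter, the highest being Kcnk7 at 3149 bp, and the median was 0 bp. None of the Kcnk genes reached 5000 bp. Among the 8 Kcnh genes only Kcnh2 had an acetylated promoter, and both Kcnd genes had 0 bp. The 10 silent voltage-gated genes ran from Kcng4 at 5925 bp to 0 bp, with 4 acetylated promoters. The beta subunits of voltage-gated channels had 3 of 3, from Kcnab1 at 480 bp to Kcnab3 at 3137 bp. The accessory Kcne genes had 2 of 4 (Kcne4 and Kcne3), the Kv4-binding calcium sensors 1 of 4 (Kcnip3, 1258 bp) and the BK beta subunits 1 of 4 (Kcnmb1). The genes were also put in classes by symbol, and the gating of each gene was not checked. Acetylated promoters were present at 6 of 8 genes classed as calcium- or sodium-activated (75.0%) and 17 of 39 classed as voltage-gated (43.6%). They were present at 4 of 15 inward rectifier (26.7%) and 5 of 14 two-pore genes (35.7%), and at 7 of 15 accessory subunits (46.7%). For comparison, the share was 42.4% over the Kcn genes and 62.1% over all genes. The calcium- or sodium-activated class had 4 of 8 in replicate 1 and 6 of 8 in replicate 2, against 59.8% and 62.0% of all genes.

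**Figure D4:**
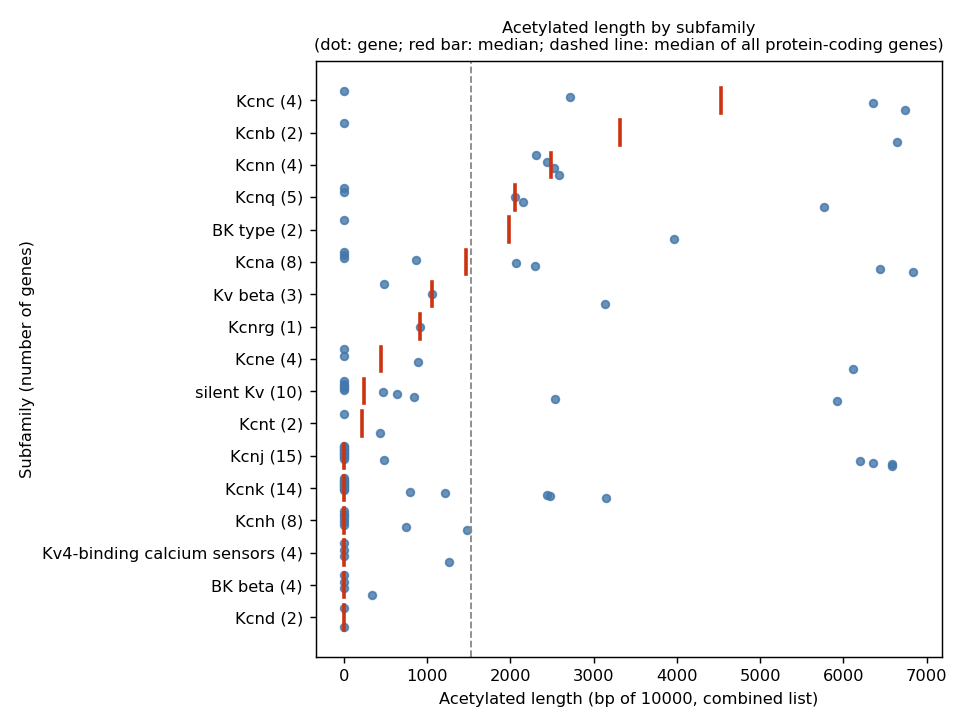
Acetylated length in the combined list (x axis, bp of 10000) of each Kcn gene by subfamily (y axis, number of genes in brackets); dots are genes, red bars medians, and the dashed line the median of all protein-coding genes, 1524 bp. The 4 Kcnn genes lie together between 2304 and 2588 bp, and 4 of the 15 Kcnj genes lie between 6199 and 6587 bp.

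The replicates were also set side by side over the members. The promoter was acetylated in both at 33 members and in neither at 52, 7 had it only in replicate 2 and 0 only in replicate 1. The 7 with one in replicate 2 only (7.61%, against 2.51% of all genes) were Kcna1, Kcna6, Kcna10, Kcnc2, Kcnmb1, Kcnn4 and Kcnt2. Their lengths in replicate 2 were from 395 to 1958 bp and, apart from Kcnn4 (495 bp), 0 in replicate 1. Of the 47 members with any acetylated bp in a replicate, replicate 2 was the longer at 41 and replicate 1 at 6. The median of replicate 2 minus replicate 1 over these 47 was 495 bp. Over the 13755 of all genes with any acetylated bp in a replicate it was 394 bp. Kcnk4, a mechanosensitive two-pore channel, had an acetylated promoter in the combined list (a region 249 bp wide) and in neither replicate.

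Many members have more than 1 start, and in most of these either every start had an acetylated promoter or none did. In some, acetylation differed between the starts. The starts of Kcnj12 lie 43240 bp apart, and both were acetylated, with 5905, 5052 and 5728 bp at the upstream start and 6579, 5925 and 6624 bp at the other. At the upstream start the signal value reached 34.5. Kcnh2 had 1477, 666 and 1413 bp at its inner start, and 0 bp in all 3 lists at the outer start 22013 bp away. Kcnip3, a calcium sensor that binds the transient outward channel, likewise had 1258 bp at 1 start and 0 at the other, 38871 bp away. In Kcnma1 6 of 8 starts, clustered at one end of the gene, were acetylated, and the 2 others, far inside the gene, had 0 bp. In Kcnn2, the starts lie 291149 bp apart and had 2526 and 1141 bp. For Kcnh2 and Kcnip3 the acetylated start was the same in each list.

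Of 284 pairs of a region and a Kcn gene (283 distinct regions), 231 lay away from the gene's own promoter, 194 of them with the summit in an intron. Of these 231, 6 were at the start of another coding gene and 3 at that of a noncoding gene. The 231 were narrower than the 53 at promoters, with a median of 778 against 1180 bp, and had a lower median signal value, 4.25 against 5.41. Of the 284, 168 were shared with both replicates and 32 with neither. Regions over gene bodies were concentrated: 8 genes held 232133 of the 336326 acetylated bp (69.0%). In relation to summed gene length, the acetylated share was 3.24% for the Kcn genes and 8.33% for all genes. Among genes with an acetylated promoter the shares were 8.35% and 11.6%. The Kcn genes were longer, with a median of 32181 against 17629 bp, and the part of gene length in these shares was not tested.

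Kcnma1, which spans 725061 bp, had 61 gene-body regions in the combined list, 51 in replicate 1 and 70 in replicate 2, covering 74079, 51278 and 73408 bp. The strongest Kcnma1 region away from its promoter, chr14:23901685-23905092 with a signal value of 25.4, lay in an intron 100790 bp from the start. Kcnc1 had 4 regions over 26637 bp, 63.1% of the gene, against 10.2% in Kcnma1. One of them, chr7:46401177-46416887, was 15711 bp wide with a signal value of 37.7, against 20.4 at the Kcnc1 start. In Kcnc1 the region with the highest signal value was thus in an intron and not at the start.

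Kcnq1 had 23 regions covering 27772 bp (19641 bp in replicate 1 and 26532 in replicate 2). Its strongest, chr7:143294316-143296620 with a signal value of 23.2, lay 189144 bp from the Kcnq1 start at the start of Kcnq1ot1, the imprinted antisense noncoding RNA of this locus, and the files do not separate the parental alleles. Kcnab1 had 18 regions over 19863 bp, Kcnq5 17 over 19477 bp, Kcnj12 12 over 18608 bp and Kcnc4 4 over 15423 bp, which was 72.6% of Kcnc4. Kcnab1 and Kcnq5 are long genes with 480 and 2058 bp around their starts, so most of their acetylated bp lay farther inside.

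The summits of such regions are shown for the 4 members named here with the most acetylated gene-body bp: 200 bases around the summit of the strongest intron region away from any annotated start, on the strand of the gene, mm10, with the E-box CAGCTG in capitals. This E-box is the form preferred by myogenic regulators of the MyoD family.
Kcnma1, chr14:23903040-23903239, - strand: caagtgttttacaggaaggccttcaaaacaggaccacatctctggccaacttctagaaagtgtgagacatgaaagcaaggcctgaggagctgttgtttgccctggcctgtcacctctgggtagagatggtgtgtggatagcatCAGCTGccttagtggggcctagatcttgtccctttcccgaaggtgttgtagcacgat
Kcnq1, chr7:143416732-143416931, + strand: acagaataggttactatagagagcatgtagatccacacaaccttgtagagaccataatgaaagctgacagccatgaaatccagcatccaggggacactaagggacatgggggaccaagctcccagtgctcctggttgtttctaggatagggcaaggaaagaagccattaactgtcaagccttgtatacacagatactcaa
Kcnc1, chr7:46414112-46414311, + strand: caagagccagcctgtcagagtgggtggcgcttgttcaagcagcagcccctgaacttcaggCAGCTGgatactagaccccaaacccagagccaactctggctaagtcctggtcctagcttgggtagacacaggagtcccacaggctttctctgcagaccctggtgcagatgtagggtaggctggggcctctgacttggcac
Kcnab1, chr3:65136818-65137017, + strand: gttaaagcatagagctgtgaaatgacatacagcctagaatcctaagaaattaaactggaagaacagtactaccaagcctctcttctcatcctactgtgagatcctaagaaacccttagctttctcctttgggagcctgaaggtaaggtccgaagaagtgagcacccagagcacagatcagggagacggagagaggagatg

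The E-box was present once in each of the Kcnma1 and Kcnc1 windows and not in those of Kcnq1 and Kcnab1. Over all 225 windows around summits of Kcn regions outside promoters 36 (16.0%) held it, where 14.1% of 68285 windows of the whole list did. Of the 9 motifs searched on both strands, the other E-box, CACCTG, was in 17.8% against 15.0%, the TEAD motif CATTCC in 27 windows against 11.3% of all, the NF-Y motif CCAAT in 21.8% against 20.3%, the AP-1 motif TGANTCA in 5.78% against 5.69%, the SP/KLF motif GGGCGG in 4.44% against 3.81% and the ETS motif CCGGAA in 1.78% against 2.63%. MEF2 sites were in 1.78% against 1.96% and SRF CArG boxes in 0.889% against 0.947%. The shares in Kcn windows were thus near those of all regions. In the 250 bases upstream of the start, CAGCTG was in 15 of 92 Kcn genes (16.3%) and in 12.1% of all genes, CACCTG in 25.0% and 17.4%, the TEAD motif in 17.4% and 11.4%, the NF-Y motif in 23.9% and 35.0%, and the SP/KLF motif in 48.9% and 41.4%. Upstream of the start the ETS motif was in 13.0% and 14.5%, and the AP-1 motif in 3.26% and 5.95%. There, MEF2 sites were in 3.26% and 2.65%, and SRF CArG boxes in 1.09% and 1.21%. A match of these letters is a description and not a measured binding site.

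The median gene length was 32181 bp for the Kcn genes and 17629 bp for all genes, and its part in the next shares was not tested. Of the genes without an acetylated promoter, 13 of 53 members had a gene-body region, and 1074 of 7880 over all genes. As shares of every gene, gene-body regions without an acetylated promoter were found at 13 members (14.1%), against 5.16% of all genes. The most were at a pair of G-protein-gated inward rectifiers: Kcnj6 with 4134 bp in 3 regions (2718 bp in replicate 1 and 5072 in replicate 2) and Kcnj3 with 4029 bp in 3 regions (2616 and 5225 bp). The strongest was chr16:94826451-94828689 in Kcnj6, 2239 bp wide at a signal value of 9.16, and all 6 regions were intronic and shared with both replicates. Both genes had 0 bp around their starts in every list. Next came Kcnv2, a silent subunit of photoreceptors (1811 bp), Kcnd3 (1734 bp, with 0 in replicate 1), Kcnk13 (1075 bp) and Kcnh6 (1042 bp). For Kcnd3 no region was shared with replicate 1.

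Members that lie side by side often differed. Kcnj2 and Kcnj16 are neighbours on chromosome 11 with starts 98131 bp apart: Kcnj2 had 6199 bp, and Kcnj16, an inward rectifier of kidney and glia, had 0 bp and no gene-body region. On chromosome 6, Kcna5, Kcna1 and Kcna6 follow each other with 109384 and 95878 bp between starts, and had 6437, 2071 and 0 bp. On chromosome 3, Kcna2 had 2293 bp, Kcna10 861 bp (replicate 2 only) and Kcna3, the channel of T lymphocytes, 0 bp. Kcnj9 and Kcnj10 on chromosome 1 had 481 and 0 bp, and Kcnj1 and Kcnj5 on chromosome 9, Kcne1 and Kcne2 on chromosome 16 and Kcnj6 and Kcnj15 on the same chromosome had 0 bp at their starts. Kcnk5 had 2474 bp and its neighbour Kcnk16 0 bp. Kcnmb1 lies inside Kcnip1, which had 0 bp at its own starts, and the 1 region of Kcnmb1 was also counted as a gene-body region of Kcnip1.

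ATP-sensitive channels need a sulphonylurea receptor, and both receptor genes lie next to a pore gene. Abcc9, the receptor of muscle and vessels, is next to Kcnj8 and had 6194, 4846 and 6020 bp and 18 gene-body regions. Abcc8, the receptor of beta cells and neurons, is next to Kcnj11 and had 468, 0 and 702 bp, with 10 gene-body regions over 11300 bp. Between the starts of Kcnj11 and Abcc8, and over 1 kb from both, lay 10 regions covering 11604 bp, and between those of Kcnj8 and Abcc9 17 regions covering 16563 bp. Between the starts of Kcnj16 and Kcnj2 there were 0 such regions. Of the ATP-sensitive genes, Kcnj8, Kcnj11 and Abcc9 thus had at least 4846 bp around their starts in both replicates, and Abcc8 at most 702 bp.

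**Figure D5:**
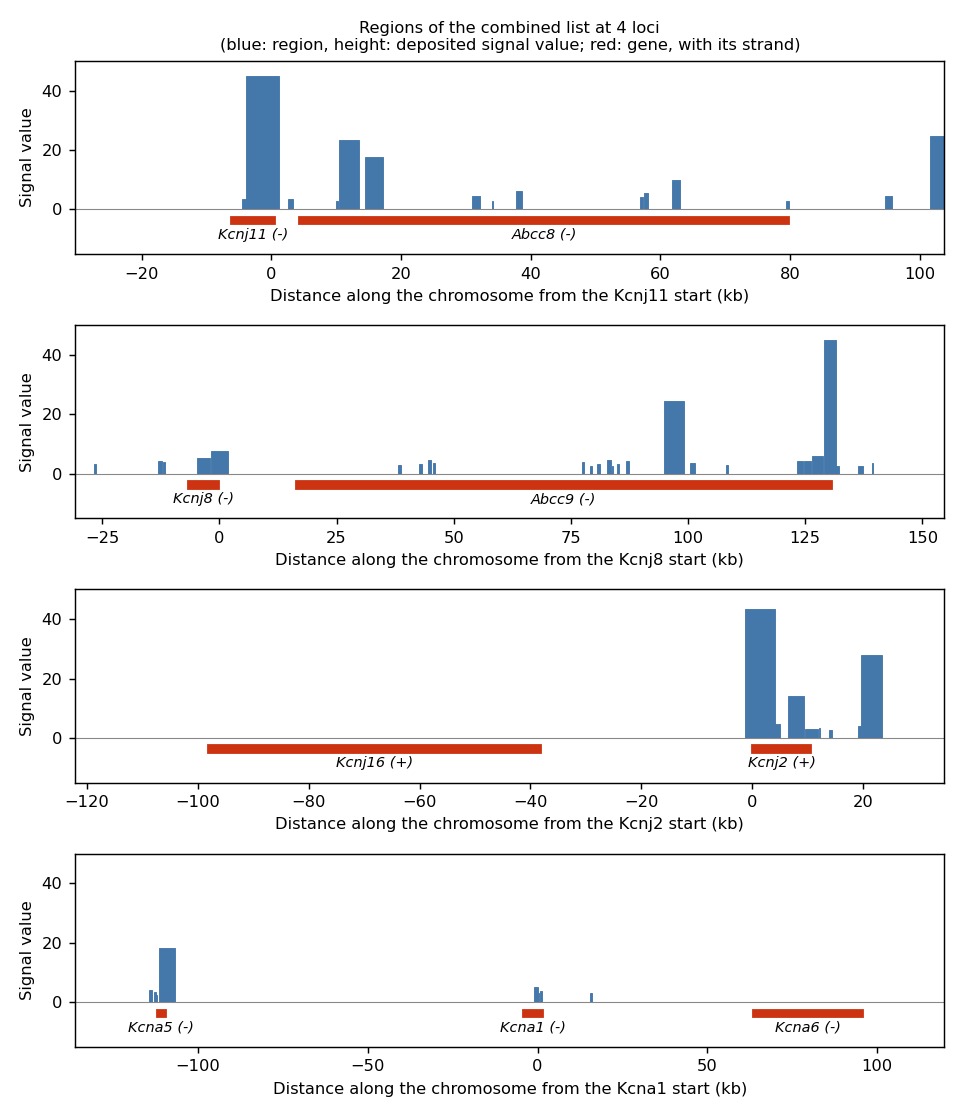
Regions of the combined list (blue boxes, height is the deposited signal value on the y axis) at 4 loci against the distance along the chromosome from the start of Kcnj11, Kcnj8, Kcnj2 and Kcna1 (x axis, kb), with genes as red bars and their strand in brackets. Strong regions stand at the starts of Kcnj11 (45.0) and Kcnj2 (43.3), and the region at the Kcnj8 start is low (7.72).

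Of the 10 partner genes whose symbols do not begin with Kcn, 8 had an acetylated promoter (5 and 8 in the replicates, against 59.8% and 62.0% of all genes), with a median of 2208 bp. Lrrc38, an auxiliary subunit of the large-conductance calcium-activated channel, was the widest with 7262, 6343 and 7217 bp. Lrrc26, another such subunit, had 3831, 1507 and 3360 bp, and 656 bp in its gene body in the combined list. Length in regions at a neighbour's start was counted for the Kcn genes only. Amigo1, a cell adhesion protein that joins voltage-gated channels, had 2974, 1680 and 1914 bp, and Dpp6 and Dpp10, partners of the Kcnd channels, had 0 bp, as did both Kcnd genes. Lrrc38 was thus wider than Kcnma1 (3965 bp), whose channel it modifies, and Kcnmb1 (332 bp) was far narrower.

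Of 14 other genes of membrane excitability 9, 9 and 10 had an acetylated promoter in the 3 lists. The 64.3% of the combined list is close to the 62.1% of all genes, and the median was 5944 bp. Clcn1, the muscle chloride channel, had 8127, 7630 and 8379 bp, and Scn4a, the muscle sodium channel, had 7156, 5303 and 7128 bp. Both exceeded every Kcn gene in the combined list and in replicate 2. In replicate 1 Scn4a was below several Kcn genes, among them Kcnc1 (6451 bp), Kcnc4 (6035 bp), Kcnj12 (5925 bp), Kcnj11 (5480 bp) and Kcnj2 (5337 bp).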

How the data were processed

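The authors deposited 4 narrowPeak lists on mm10: replicate 1, replicate 2, both pooled, and the replicated list from both, with technical replicates sharing 1 alignment, per the deposited file descriptions. The deposited signal value has no stated normalization and served only to describe and rank regions. The authors deposited q-values as −log10. Aligner, caller and thresholds: not given in the sources used here. No control library was analysed here. The lists hold no counts, so depth is unknown and no test between samples was made.

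Regions were intersected with GENCODE M21 starts and gene bodies (Python 3.11.15, numpy 2.4.6, pandas 2.3.3, matplotlib 3.10.9), with code tested on simulated data. A region was shared with a replicate if 50% of the shorter overlapped. Sequences came from GRCm38, identical to all 93 RefSeq promoter windows of the 68 Kcn genes in that table. Members and lists were chosen with earlier results of these data known. Named genes were the muscle, vessel, heart and neuron lists, the 12 members widest at starts, the 8 with most gene-body bp, 6 with body regions only, those in 1 replicate only, subfamily extremes and locus neighbours. Other members, and the single regions described, were named after their values were seen. Some genes are not reported here by name and remain in the counts and medians.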

Additional observations from a re-analysis of the deposited data

How the results depend on the processing

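The 11 counts and medians were recomputed under 85 alternative settings. Of these values 75 stayed within 1.5 times the count, or within the spread between replicates for a length, and 10 did not. With the list of either replicate alone the median acetylated length was 0 to 396 bp for the members, 5337 to 6219 bp for the skeletal muscle channels and 3137.5 to 4640 bp for the vessel channels. The pooled list gave 385.5 bp for the members. With windows of 2500 and 10000 bp to each side, scaled to 10000 bp, the muscle median was 7624 and 4560.5 bp and the vessel median 6122 and 2570.5 bp. With only the 5′ end of each gene model as start, the vessel median was 3354.5 bp and the heart channels with a promoter region were 1. The muscle channels with a promoter region were then 6 of 7. They were also 6 of 7 with a −log10 q of at least 5, where the region at the Kcnn3 start had 1.70. The causes were not tested. A list of regions holds no value below its caller's threshold, so a start without a region is not shown to lack the mark, and the shorter list of replicate 1 limits every count that needs both replicates. No paired analysis was possible because there was 1 group.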
